A study of Mus musculus with 8 samples.

Results

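Mitochondrial ribosomal protein genes were measured in heart muscle (myocardium) of male mice that had received no treatment. The members were all genes whose symbol is Mrpl or Mrps followed by a number and at most 1 letter, which gave 78 genes of 20661 named on the arrays, 49 with Mrpl and 29 with Mrps symbols. All 78 symbols of this form in the RefSeq gene table were on the array, by 100 probes. Where a gene had several probes, the probe with the highest mean signal stood for it, and 22 genes had a second one. Neither the symbol rule nor the choice of probe used a genotype difference, but the group was chosen with earlier results of these data known. The arrays were labelled NPRA-/- (3 arrays) and NPRA+/+ (5 arrays). NPRA, the product of Npr1, is a receptor through which the heart's natriuretic peptides raise cyclic GMP. Per the labels the model carries conditional (floxed) alleles, and per the series title the deletion is restricted to the heart. The sources used here do not give the Cre driver, the age, the strain, or whether NPRA+/+ mice carried floxed alleles too. Since the labels do not say which animal a sample came from, p-values measure only the spread between these samples. The comparison asked whether transcripts of mitochondrial ribosomal proteins differed between hearts labelled NPRA-/- and NPRA+/+.

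Mitochondria translate their own small set of transcripts, all for subunits of the oxidative phosphorylation complexes, on a ribosome that is separate from that of the cytosol. Its RNA comes from mitochondrial DNA, while every protein of it is encoded in the nucleus, made in the cytosol and imported. The heart depends on oxidative phosphorylation for contraction, and inherited defects of several mitochondrial ribosomal proteins are known to affect heart muscle. Mrpl symbols name proteins of the large subunit, which forms peptide bonds, and Mrps symbols those of the small subunit, which decodes the transcript. The names do not always follow the position: Mrps30 and Mrps18a products sit in the large subunit, and that of Mrps36 is known as a component of the 2-oxoglutarate dehydrogenase complex.

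What the members shared at their promoters was read from RefSeq sequences (GRCm38.p6), which held 75 promoters of 69 of the 78 genes. The letters of motifs known from nuclear genes for mitochondria were searched on both strands of the 250 bases before the start of each gene. GCATGCGC, the core of the palindromic site of NRF1, a transcription factor of many respiratory genes, was present in 8 of 69 members (11.6%), against 2.56% of all 27025 genes of the table and 3.71% of the 15102 that were also tested on the arrays. The following stretches show it, written 5′ to 3′ on the gene's strand with the motif in capitals. In Mrpl9 and Mrpl39 the match on either strand joins into the full palindrome, which was counted once per gene.
Mrpl9, chr3:94443296-94443329, plus strand: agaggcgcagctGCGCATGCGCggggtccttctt
Mrpl39, chr16:84735348-84735381, minus strand: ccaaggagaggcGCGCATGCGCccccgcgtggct
Mrpl10, chr11:97041436-97041467, plus strand: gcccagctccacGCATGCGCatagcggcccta
Mrps18b, chr17:35916644-35916675, minus strand: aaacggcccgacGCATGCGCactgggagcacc

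CCGGAAG, the core bound by ETS factors such as GABP, was present in 18 of 69 members (26.1%), against 7.83% of all genes and 11.3% of those tested. The stretches below belong to members whose levels are described further on, with this core (or its complement CTTCCGG) in capitals.
Mrpl3, chr9:105053237-105053267, plus strand: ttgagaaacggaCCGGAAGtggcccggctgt
Mrps22, chr9:98601680-98601702, minus strand: aaacctctcgagCCGGAAGttgc
Mrpl34, chr8:71464877-71464907, plus strand: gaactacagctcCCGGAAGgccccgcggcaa
Mrps27, chr13:99344726-99344756, plus strand: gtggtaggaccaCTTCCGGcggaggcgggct
Mrpl58, chr11:115403723-115403751, plus strand: gctggcggaccgCCGGAAGagtgagcacc
Mrps18c, chr5:100798591-100798621, plus strand: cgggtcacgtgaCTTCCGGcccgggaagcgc

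AAGATGGC, the YY1 motif, was present in 4 members (5.80%, against 1.83% of all genes and 1.93% of those tested), and at least 1 of the 3 motifs in 27 (39.1%, against 11.5% of all genes). For at least 1 of the 3, the share of genes tested was not computed. The E box CACGTG, the site of MYC and USF factors, was present in 5 members (7.25%), against 6.86% of all genes and 8.37% of those tested. Mrpl17, Mrpl22 and Mrpl32 held 2 of the 3 motifs. Mrpl22 and Mrpl32 are shown for these combinations, Mrpl32 having the most matches (5), 1 of them the YY1 motif on the opposite strand (GCCATCTT).
Mrpl22, chr11:58171599-58171650, plus strand: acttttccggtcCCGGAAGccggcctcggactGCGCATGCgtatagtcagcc
Mrpl32, chr13:14613040-14613287, minus strand: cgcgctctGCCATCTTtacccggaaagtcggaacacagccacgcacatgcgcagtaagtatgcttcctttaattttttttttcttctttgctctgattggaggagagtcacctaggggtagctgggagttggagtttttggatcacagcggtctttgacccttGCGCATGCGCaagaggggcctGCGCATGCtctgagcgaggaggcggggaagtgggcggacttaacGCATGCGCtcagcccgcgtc

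These matches describe letters in a window and not binding. The exact 95% binomial interval of the member share ran from 5.14% to 21.6% for NRF1 and from 16.3% to 38.1% for ETS, and it covers counting error only. With TGCGCA, a shorter form of the NRF1 site that overlaps the longer motif in part, 18 members (26.1%) had a match, against 7.36% of all genes and 10.2% of those tested. The plot of motif shares sets members beside other genes.

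**Figure D1:**
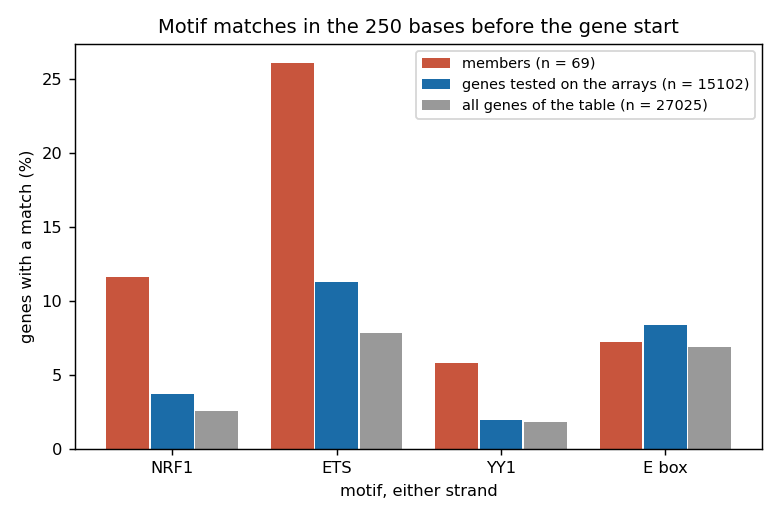
Percent of genes with a match on either strand in the 250 bases before the gene start, for 69 members, 15102 genes tested on the arrays and 27025 genes of the promoter table. NRF1, ETS and YY1 letters stood in 11.6%, 26.1% and 5.80% of members, above both other groups, and the E box in 7.25%, between them.

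The arrays were comparable in signal, with a 75th percentile between 775 and 1253 and 79.5% to 92.6% of 39429 probes well above background. They were scanned on 4 days, and only day 1 held both genotypes, with replicates 2 and 3 of each. Arrays with the same scan time were taken as 1 slide, and none of these 6 slides (0) held both genotypes. Levels below are log2 signals relative to each array's 75th percentile. They compare samples for 1 probe and not genes with each other. The deleted gene, Npr1, lay near background, at -6.42, -5.53 and -5.59 on NPRA-/- arrays and at -4.77, -6.14, -6.55, -6.00 and -5.93 on NPRA+/+ arrays, both in replicate order as below, a fitted change of 0.03 ± 0.40 (SE). The sources used here do not say whether its probe lies in the deleted part, so it cannot serve as a check, and all directions rest on the genotypes as labelled. The 8 cardiomyocyte markers were well above background on all 8 arrays. Their mean level was 7.51 in NPRA-/- replicate 1 and 7.22 in NPRA+/+ replicate 1 but 5.21 to 6.26 on the other 6 arrays, so both replicate 1 arrays stood apart. Mesothelial markers (6 of 7 tested) had a mean level of -3.83 to -2.83 on NPRA-/- and of -5.65 to -4.86 on NPRA+/+ arrays, thymocyte markers (5 of 6) of -2.93 to -2.82 and -3.83 to -2.97, and skeletal muscle markers (6 of 6) of -4.20 to -3.80 and -5.55 to -3.78. The thymocyte and skeletal muscle markers tested, and the mesothelial ones except Wt1, lie in the 3 dimmest of the 5 signal groups described below. From the dimmest up, all probes of these groups had median changes (NPRA-/- minus NPRA+/+) of 0.63, 0.40 and 0.22. The median change was 2.17 for mesothelial, 0.56 for thymocyte and 0.83 for skeletal muscle markers. Whether cell content differed between the genotypes, and the part of any marker group in the results, was not tested.

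No member passed the test of a genotype difference. With limma's test over all 35329 probes, 0 of 78 members were called higher or lower at an adjusted p under 0.05, and 0 had an unadjusted p under 0.05 in either direction (smallest adjusted p 0.301, Mrpl47). Over all probes 0.32% were called higher and 0.0283% lower, and 18.3% and 1.36% had an unadjusted p under 0.05. With the repetition number as a block limma called 0 probes (20.6% and 1.48% at an unadjusted p under 0.05), and without NPRA+/+ replicate 1 it called 3901 higher and 187 lower, again with 0 members. In bulk tissue, fewer cells of a type and less RNA per cell cannot be told apart. The fitted log2 changes (NPRA-/- minus NPRA+/+) had a median of 0.04, with quartiles at -0.04 and 0.15, and ran from -0.24 (Mrpl54) to 1.10 (Mrpl47). The median turned to -0.01 with quantile normalization or the deposited values, -0.02 with normexp background correction, with array weights or without both replicate 1 arrays, -0.04 with scan day as a block and -0.25 with scaling to the array median. Above 0 were 49 members and below 0 were 29, while 75% of all probes lay above 0, but 60.3% and 58.9% of those in the brightest and the fourth of 5 signal groups described next, which hold 77 of the members. With scaling to the array median 4 of 78 members lay above 0, and the median of all probes was -0.08.

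The comparison with all probes depends on signal. The median change of all probes was 0.21, but probes split by signal into 5 groups of equal size had medians from 0.63 (dimmest) to 0.05 (brightest), as the plot of change against signal shows. Of the members, 68 lay in the brightest group, 9 in the fourth and 1, Mrpl21, in the dimmest. In the brightest group the members' median was 0.04 against 0.05 for all its probes, and in the fourth 0.07 against 0.05. An unadjusted p under 0.05 was found for 1.88% (higher) and 1.85% (lower) of the probes of the brightest group and for 4.16% and 2.31% of the fourth, against 0 members.

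**Figure D2:**
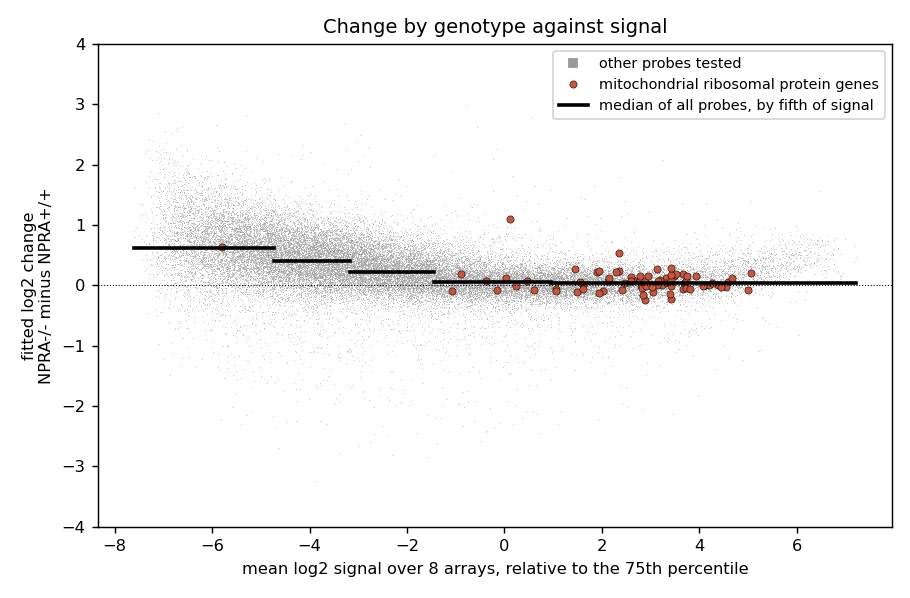
Fitted log2 change (NPRA-/- minus NPRA+/+) against the mean log2 signal over 8 arrays, for the probes tested, with members as red points and black lines at the median of each of 5 equal groups by signal. The medians fall from 0.63 to 0.05 with signal, and most members lie around 0 at the bright end. With scaling to the array median, 4 of 78 members lay above 0.

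The spread between arrays set how small a change could be seen. The residual SD of the members had a median of 0.18, against 0.23 for the brightest group of probes and 0.28 for all genes. The 95% interval of the change had a median width of 0.36 to either side. It lay inside a 1.25-fold change in either direction for 7 of 78 members, inside 1.5-fold for 64 and inside 2-fold for 75. The 3 beyond 2-fold were Mrps7, Mrpl21 and Mrpl47. For these 3 members a 2-fold difference was thus within the interval, and for the other 75 it was not. These intervals hold for scaling to the 75th percentile and do not cover the choice of scaling. The members' median change was 0.04 with the 75th percentile and -0.25 with the array median.

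**Figure D3:**
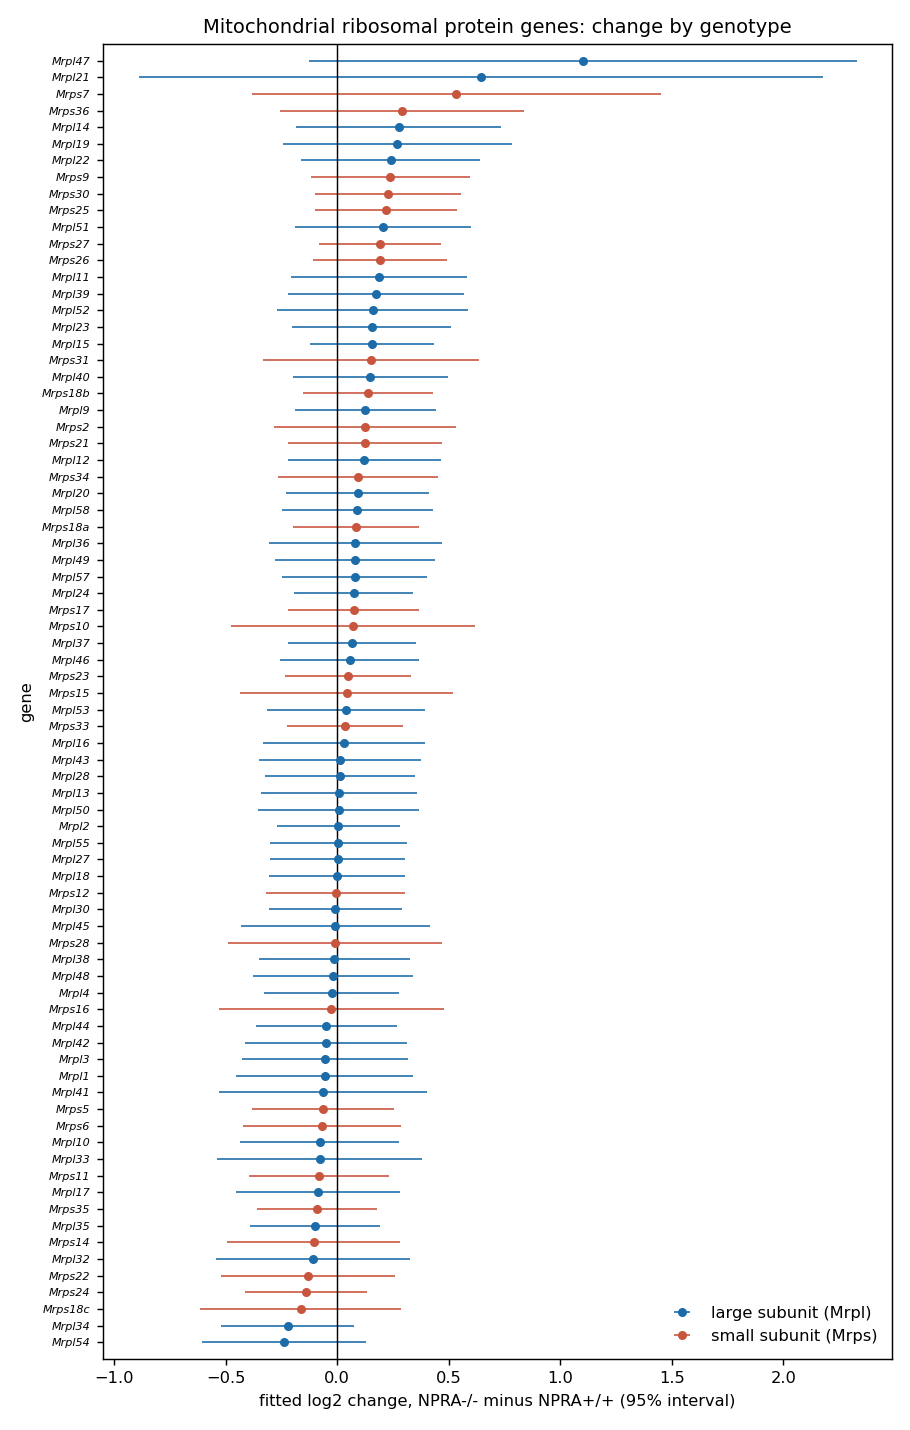
Fitted log2 change (NPRA-/- minus NPRA+/+) of each of 78 members with its 95% interval, ordered by size, with Mrpl genes in blue and Mrps genes in red. All intervals include 0, and those of Mrpl47, Mrpl21 and Mrps7 are the widest. The median of 0.04 was below 0 with quantile, normexp or median scaling, the deposited table, scan day as a block, array weights, or without both replicate 1 arrays.

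Among Mrpl genes the median change was 0.01, and 31 of 49 lay above 0. Mrpl47, whose product is the counterpart of bacterial L29 near the exit tunnel of the large subunit, had the largest difference of all. Its level was 1.17, 0.82 and 0.43 on NPRA-/- arrays, and 0.77, -0.08, -1.70, 0.40 and -0.88 on NPRA+/+ arrays. The NPRA+/+ arrays spread over more than the difference, and 1 of them, replicate 1, lay within the NPRA-/- range. The fitted change was 1.10 ± 0.53 (SE; limma, adjusted p = 0.301), and a second, dimmer probe of the gene had a change of 0.01 ± 0.45.

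The ribosomal stalk recruits translation factors. Mrpl12, a stalk protein that also binds the mitochondrial RNA polymerase, was at 3.35, 3.40 and 3.45 on NPRA-/- and at 2.95, 3.40, 3.50, 3.27 and 3.28 on NPRA+/+ arrays. NPRA+/+ replicate 1 was the low one, the rest overlapped, and the change was 0.12 ± 0.15 (-0.17 with scaling to the array median). Mrpl10, which anchors Mrpl12 to the ribosome, was at 0.55 ± 0.17 (SD, n = 3) and 0.63 ± 0.19 (SD, n = 5). Both stalk genes thus differed by less than the spread between arrays.

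Mrpl3 and Mrpl44 are core proteins of the large subunit whose human genes are known from inherited cardiomyopathy. Mrpl3 was at 3.63, 3.89 and 3.80 on NPRA-/- arrays and at 3.48, 4.02, 4.03, 3.82 and 3.80 on NPRA+/+ arrays. Mrpl44 was at 2.58, 2.94 and 2.83, and at 2.66, 2.93, 2.93, 2.87 and 2.77. For both, replicate 1 of either genotype was lowest and the genotypes overlapped, with changes of -0.06 ± 0.16 and -0.05 ± 0.14. Mrpl58, a peptidyl-tRNA hydrolase built into the large subunit that frees stalled peptides, was at 3.26 ± 0.07 (SD, n = 3) and 3.17 ± 0.20 (SD, n = 5), where NPRA+/+ replicate 1 (2.82) lay below the other 4 (3.20 to 3.35).

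At the lower end stood Mrpl54 and Mrpl34, proteins of the large subunit. Mrpl54 was at 2.70, 2.67 and 2.83 on NPRA-/- arrays and at 2.60, 3.23, 2.99, 3.04 and 3.00 on NPRA+/+ arrays. All NPRA-/- values lay below 4 of the 5 NPRA+/+ values and above that of replicate 1. The change was -0.24 ± 0.16 (limma, adjusted p = 0.457). It was -0.33 ± 0.12 without NPRA+/+ replicate 1 (adjusted p = 0.110), and passed with array weights (-0.34 ± 0.10, adjusted p = 0.0397). Mrpl34 was at 3.25, 3.33 and 3.24 against 3.32, 3.62, 3.45, 3.68 and 3.42, a change of -0.22 ± 0.13 (adjusted p = 0.386). Only NPRA+/+ replicate 1 overlapped with the NPRA-/- range, and the change stayed below 0 under every one of the 24 alternatives, from -0.51 to -0.18. The Mrpl34 and Mrpl58 promoters both hold the ETS core shown above. Neither gene was called, and whether the core bears on levels was not tested.

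Of the other Mrpl genes named by the rule, Mrpl32, which is cleaved by the m-AAA protease of the inner membrane before it joins the ribosome and whose promoter held the most motif matches, was at 1.76, 0.99 and 1.54 on NPRA-/- arrays and between 1.39 and 1.75 on NPRA+/+ arrays. NPRA-/- replicate 2 was the low one. Mrpl14, the protein contacted by the assembly factor Malsu1, had a change of 0.28 ± 0.20 and Mrpl24, a protein of the exit tunnel region, 0.07 ± 0.12, both below 0 with scaling to the array median. Mrpl41, specific to mitochondria, was measured on 3 of 5 NPRA+/+ arrays and had a change of -0.06 ± 0.19. Mrpl21 was dim: 3 of 3 NPRA-/- arrays and 3 of 5 NPRA+/+ arrays had it well above background. Its change of 0.64 ± 0.67 stood beside a median of 0.63 for all probes of its signal group.

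Mrpl19, a protein at the interface of the subunits, depended on which arrays were used. Its level was 1.56, 1.67 and 1.59 on NPRA-/- arrays and 1.48, 0.84, 1.72 and 1.32 on NPRA+/+ replicates 1, 2, 4 and 5, replicate 3 being missing. NPRA+/+ replicate 2 was the low one, replicate 4 was the highest value of all, and the change was 0.27 ± 0.22 (limma, adjusted p = 0.547). Within scan day 1 it was 0.80 ± 0.12 (adjusted p = 0.0455), the only member called there, where NPRA+/+ is that single low array. Over all members the median within scan day 1 was -0.04, and 2 had an unadjusted p under 0.05 higher and 2 lower, beside 31.2% and 4.63% of all probes.

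Among Mrps genes the median change was 0.07, and 18 of 29 lay above 0. Mrps27, a protein with pentatricopeptide repeats, was the only one of 78 members without overlap between the genotypes (1 higher and 0 lower, where 14.1% and 1.29% of all probes did not overlap, and 4.88% and 2.52% in its signal group, the fourth). Its level was -0.73, -0.80 and -0.78 on NPRA-/- arrays and -1.13, -0.87, -1.01, -0.86 and -0.95 on NPRA+/+ arrays. The gap between the nearest arrays was smaller than the spread within NPRA+/+, and the change of 0.19 ± 0.12 (limma, adjusted p = 0.415) was -0.10 with scaling to the array median.

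Mrps7, Mrps12, Mrps5 and Mrps10 are counterparts of bacterial small subunit proteins, and that of Mrps12 lines the decoding centre. Mrps7 was at 3.10, 2.50 and 2.47 on NPRA-/- arrays and at 2.49, 2.48, 2.42, 2.51 and 0.87 on NPRA+/+ arrays. NPRA+/+ replicate 5 alone lay far below the rest, NPRA-/- replicate 1 alone above, and the other 6 arrays lay between 2.42 and 2.51. The change was 0.53 ± 0.40 with a second probe at 0.13 ± 0.15, and 0.21 ± 0.19 without NPRA+/+ replicate 5. Mrps12 differed by -0.01 ± 0.14, Mrps5 by -0.06 ± 0.14 and Mrps10 by 0.07 ± 0.24.

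Mrps22 and Mrps14 are further members whose human genes are known from inherited heart disease. Mrps22 was at 1.60, 1.99 and 1.97 on NPRA-/- arrays and at 1.61, 2.03, 2.04, 2.11 and 2.13 on NPRA+/+ arrays. Replicate 1 was the low array in both genotypes, and the other arrays of both lay between 1.97 and 2.13, for a change of -0.13 ± 0.17. Mrps18c, 1 of the 3 mitochondrial relatives of bacterial S18, was also lowest on replicate 1 of both genotypes. It was at 2.44, 2.88 and 2.87 against 2.41, 3.05, 3.05, 3.00 and 2.95 (change -0.16 ± 0.20). Without both replicate 1 arrays the changes were -0.10 ± 0.09 for Mrps22 and -0.14 ± 0.09 for Mrps18c, neither called. Mrps14 had a change of -0.11 ± 0.17, and its second, dimmer probe one of 0.43 ± 0.15 (limma, adjusted p = 0.176).

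Of the other Mrps genes, Mrps24, the counterpart of bacterial S3 at the entry of the transcript, had a change of -0.14 ± 0.12. Mrps25 and Mrps30 stood at 0.22 ± 0.14 and 0.23 ± 0.14, and NPRA+/+ replicate 2 was the low array of Mrps30 (1.51, the others 1.87 to 1.94). Mrps36 had a change of 0.29 ± 0.24, with 2.63 on NPRA+/+ replicate 3 and 3.30 to 3.71 on the other NPRA+/+ arrays. The least variable members were Mrps33, at 4.28 ± 0.11 (SD, n = 3) and 4.24 ± 0.04 (SD, n = 5), and Mrps35, at 1.96 ± 0.15 (SD, n = 3) and 2.05 ± 0.02 (SD, n = 5), with Mrpl24 and Mrps27. A second, dimmer probe of Mrps33 varied more, at 0.35 ± 0.40 (SD, n = 3) and 0.54 ± 0.36 (SD, n = 5).

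**Figure D4:**
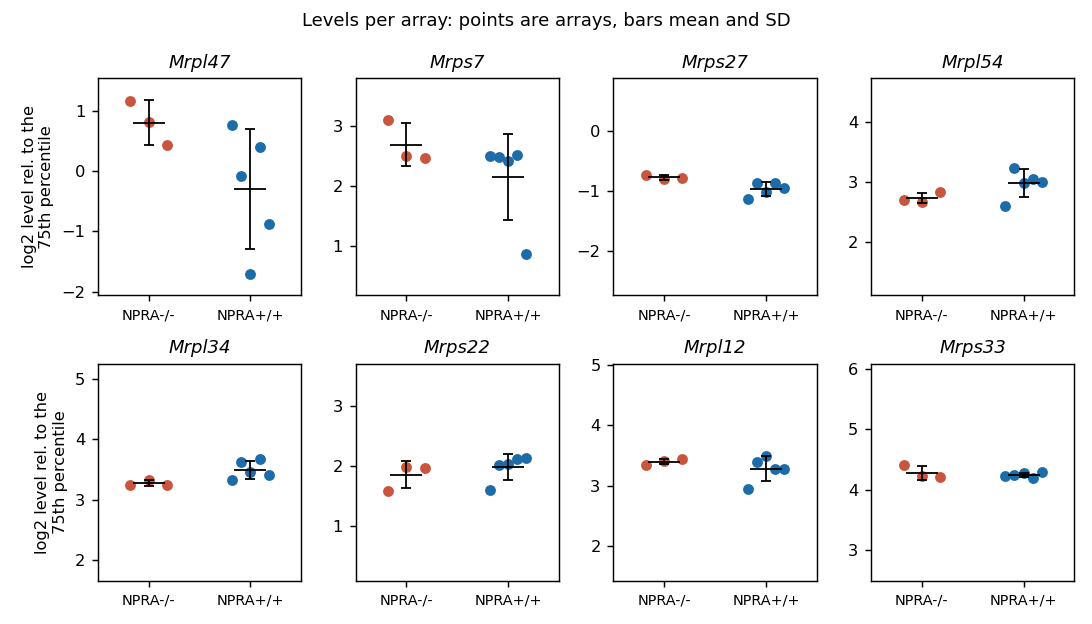
Log2 level relative to the array's 75th percentile of 8 members on each array, with the mean and SD of NPRA-/- (n = 3, red) and NPRA+/+ (n = 5, blue), every panel spanning the same range of log2 units. Points of the genotypes interleave in all panels but Mrps27, and single arrays lie apart for Mrps7 (0.87) and Mrps22 (1.60 and 1.61).

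Second probes were likewise without a call. Of 22, 5 had a change of the other sign than the brighter probe, and 0 were called. An unadjusted p under 0.05 was found for 2 of the 22, those of Mrps14 and of Mrps2, the latter at 0.54 ± 0.19 (limma, adjusted p = 0.181). Both were higher and lie in the third signal group, where 17.6% of probes were higher at this p and 1.37% lower (18.3% and 1.36% of all probes). Their median change was 0.07. The 45 members on a list of proteins with a bacterial counterpart had a median of 0.01 and the 33 others 0.06 (the list goes by name and leaves out Mrpl47), 0 of either being called. The 5 members on chromosome 3, that of Npr1, were Mrpl24, Mrpl47, Mrpl9, Mrps21 and Mrps28, with a median of 0.12 and changes from -0.01 to 1.10.

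The mean level of the members was 2.67, 2.62 and 2.60 on NPRA-/- arrays (2.63 ± 0.04, SD, n = 3) and 2.41, 2.63, 2.58, 2.65 and 2.50 on NPRA+/+ arrays (2.56 ± 0.10, SD, n = 5), a difference of 0.07 that was -0.22 with scaling to the array median. NPRA+/+ replicate 1 was the lowest array and NPRA+/+ replicates 2 and 4 were within the NPRA-/- range. After each gene's genotype mean was taken off, the array means spanned 0.25 for the members, 0.56 for 82 cytosolic ribosomal protein genes, 0.95 for 82 subunits of oxidative phosphorylation and 2.01 for the 8 cardiomyocyte markers. The span was 0.15 for all genes tested and 0.14 to 0.49 for the 6 lists of other mitochondrial translation genes described further on, 0.23 for the translation factors. These are descriptions of 8 arrays, with no test of the differences between groups.

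The cytosolic ribosomal protein, oxidative phosphorylation and cardiomyocyte groups were high on both replicate 1 arrays, and the members were not. On NPRA-/- and NPRA+/+ replicate 1 the mean deviation was 0.42 and 0.51 for oxidative phosphorylation, 0.27 and 0.25 for cytosolic ribosomal proteins, 0.86 and 1.19 for cardiomyocyte markers, and 0.04 and -0.15 for the members. In NPRA+/+ replicate 5 the same groups were at -0.45, -0.29, -0.81 and -0.04. The highest value of its genotype was on replicate 1 in both genotypes for 6 of 78 members (7.69%), 53.7% of cytosolic ribosomal protein genes, 69.5% of oxidative phosphorylation genes and 22.7% of all genes. The 6 were Mrpl32, Mrpl40, Mrpl47, Mrpl52, Mrps10 and Mrps35. The lowest value was there in both for 24 members (30.8%), among them Mrpl3, Mrpl12, Mrpl44 and Mrps22, and for 2.44% of either other group and 29.1% of all genes. Whether scan day, cell makeup or RNA quality set these arrays apart was not tested.

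**Figure D5:**
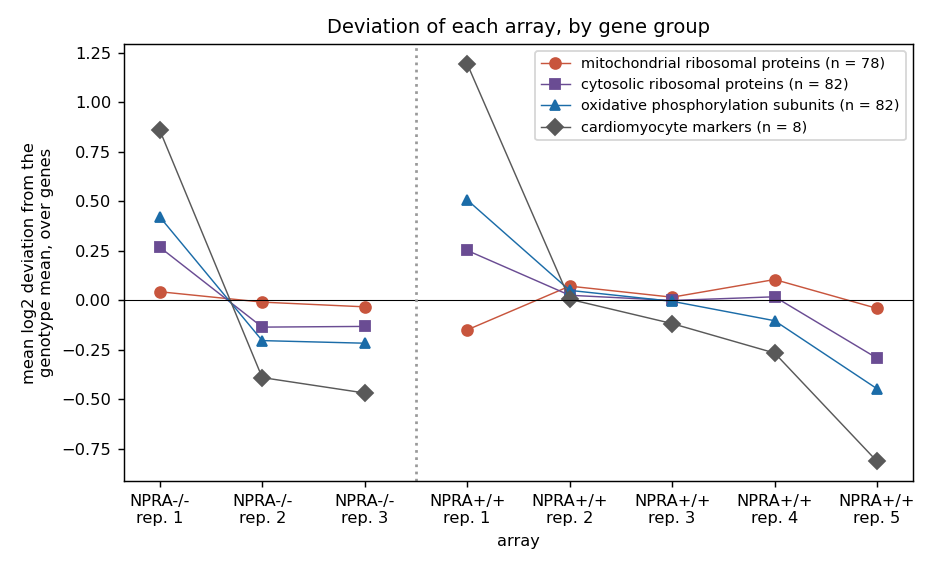
Mean log2 deviation from the genotype mean on each of the 8 arrays, over 78 mitochondrial ribosomal protein genes, 82 cytosolic ribosomal protein genes, 82 oxidative phosphorylation subunits and 8 cardiomyocyte markers; lines only join points of a group. The members stay between -0.15 and 0.10, while the other groups are high on both replicate 1 arrays.

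Within the group, a common rise or fall took a small share of the summed squared deviations. The array mean over members took 11.4% of them, against 30.4% for cytosolic ribosomal proteins, 54.8% for oxidative phosphorylation and 0.87% for all genes. Such sums weigh the most variable members most. Mrpl21, which was dim, Mrpl47 and Mrps7 had residual SDs of 1.06, 0.84 and 0.62, against a median of 0.18. The share without them was not computed. The first principal component took 52.8% (42.4% with every gene scaled to the same variance), against 56.8% and 46.9% for all genes. Of 78 members, 64 lay above their genotype mean on NPRA+/+ replicate 4 and 21 on NPRA+/+ replicate 1, the extremes, and 29 to 44 on NPRA-/- arrays. The array mean's share fell to 6.44% without NPRA+/+ replicate 1 and was 34.6% with scaling to the array median, so it turned on that array and on the scaling.

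The other genes that mitochondrial translation needs were also without a call: 0 of 89 in 6 lists, with 2 at an unadjusted p under 0.05 higher and 0 lower (limma), 52 above 0 and a median change of 0.03. With 1 probe for each of 19055 genes, 0.294% were called higher and 0.0262% lower, an unadjusted p under 0.05 was found for 16.2% (higher) and 1.24% (lower), and 71.9% lay above 0. The 5 mitochondrial ribosomal proteins with other symbols had a median of -0.03, and for 4 of them replicate 1 was lowest in both genotypes. Among these, Chchd1 had a change of 0.19 ± 0.19 and Aurkaip1 -0.14 ± 0.19. The 17 of 18 translation factors tested had a median of 0.02. Mtfmt, which formylates the initiator methionyl-tRNA, was at 0.31 ± 0.14 and Mtif3, initiation factor 3, at -0.19 ± 0.12.

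The 20 genes for charging mitochondrial tRNAs, aminoacyl-tRNA synthetases and the amidotransferase subunits Qrsl1, Gatb and Gatc, had a median of 0.00. Nars2, for asparagine, was at -4.61, -4.26 and -4.72 on NPRA-/- arrays and at -5.17, -5.33, -5.26, -5.38 and -5.65 on NPRA+/+ arrays. All 3 NPRA-/- values lay above all 5 NPRA+/+ values, and the change was 0.83 ± 0.16 (limma, adjusted p = 0.0704). It passed without NPRA+/+ replicate 1 (0.87 ± 0.16, adjusted p = 0.0249) and the probe is dim, in the signal group whose median change was 0.63. Qrsl1 was at 0.47 ± 0.32, with NPRA+/+ replicate 4 far below the rest.

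The 25 genes of ribosome assembly and RNA modification had a median of 0.11. Rcc1l was at -0.76, -1.57 and -1.73 on NPRA-/- arrays and at -1.84, -1.82, -2.00, -1.92 and -2.02 on NPRA+/+ arrays. The genotypes did not overlap, NPRA-/- replicate 1 lay far above the other arrays, and the change was 0.56 ± 0.22 (limma, adjusted p = 0.208). Mrm2, a methyltransferase of the large ribosomal RNA, was at 0.27 ± 0.14. The 12 genes of mitochondrial DNA replication and transcription had a median of 0.03, with Primpol at 0.37 ± 0.18 and Polg, the replicative polymerase, at 0.22 ± 0.12. The 10 regulators had a median of 0.03. Ppargc1a, the coactivator of mitochondrial biogenesis, was at 3.77 ± 0.24 (SD, n = 3) and 3.55 ± 0.22 (SD, n = 5), a change of 0.22 ± 0.18, and Gabpb1, a subunit of the GABP factor that binds the ETS core, at 0.18 ± 0.11. The 15 mitochondrially encoded transcripts were not analysed here, as 0 were matched on the array.

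Set beside these, the 82 cytosolic ribosomal protein genes had a median change of 0.21 and the 82 oxidative phosphorylation subunits one of 0.36, 0 of either called and 3 of each at an unadjusted p under 0.05 higher, beside 16.2% of all genes and 1.88% of the brightest probes. The median residual SD of those groups was 0.24 and 0.39, against 0.18 for the members, and the difference between the groups was not tested. Both groups were also high on the replicate 1 arrays, 1 of 3 NPRA-/- and 1 of 5 NPRA+/+ arrays, as described above. What this did to their median changes was not tested.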

How the data were processed

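RNA of 8 myocardium samples was labelled with Cy3, 1 sample to an Agilent mouse array, per the labels' protocols. The series text names m6A, while its type is expression profiling, and signals were read as transcript levels. The deposited scanner files hold linear intensity values for every spot, corrected for background within the array but not scaled between arrays, per the file headers (Agilent Feature Extraction 11.0.1.1). Flags of 0 or 1, other columns of the same deposited files, mark spots above background, saturated spots and outliers. The deposited series table holds log2 values; the sources used here give neither their scale nor their normalization. Its columns all had a median of 7.04 and a rank correlation with their own array of at least 0.999, and 39429 of 39485 entries matched a probe.

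Spots with an outlier flag were treated as missing and control spots dropped. Spots of a probe were averaged and each array's 75th percentile was taken off on the log2 scale. Nothing was imputed, and 3 members (Mrpl41, Mrps31, Mrpl19) lacked 1 or 2 arrays. Tested probes (35329) were those with a share of 0.5 or more of spots well above background, on 3 or more of the 8 arrays. All 78 members passed, 77 of them with all 8 arrays above background. RefSeq transcripts (GRCm38.p6) named 27236 probes by 1 symbol and left 12193 unnamed. The array design is annotated on another build, so gene coordinates are left out, other than chromosome names and the RefSeq promoter stretches (GRCm38.p6). The genotype difference was fitted with limma 3.58.1 (R 4.3.3, lmFit then eBayes, genotype as the single term), and p-values, all from limma and two-sided, were adjusted by Benjamini-Hochberg across the tested probes with a threshold of 0.05. The analysis was tested on simulated data. Precision is limited by the number of arrays.

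The members, the gene lists and the tests were chosen with earlier results of these data known. Named members were those with the 6 largest and 6 smallest changes, the 4 smallest p in each direction, the 4 largest and 4 smallest SDs, members whose second probe had the other sign and an unadjusted p under 0.05 on either, and 12 chosen for their role. Of each list of other mitochondrial translation genes, the 2 members with the smallest p were named. Genes named beside a small count were picked after their values were seen.

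Pairing by the labels' repetition numbers was checked. After removal of genotype means, samples of equal number correlated across probes by 0.63, 0.28 and 0.36, each above the 0.1 taken to mark pairing. Replicates 2 and 3 paired crosswise also exceed it (0.25 and 0.33). So do NPRA-/- replicates 2 and 3 with NPRA+/+ replicate 4 (0.12 and 0.16) and with NPRA+/+ replicate 5 (0.20 and 0.30). The check therefore cannot mark pairing. The labels call them biological repetitions and name no shared animal, litter or day. The source names number NPRA+/+ samples otherwise, giving 3 of them the number 1, and these correlated with NPRA-/- replicate 1 by 0.63, -0.37 and -0.37. No pair of arrays was identical (correlations from 0.944 to 0.994). Alternatives were other scalings, normexp (offset 50, on the median spot signal), other filters, the deposited table, replicate, slide and scan day blocks, other variance models, array weights, averaging a gene's probes, and leaving out each array. Leaving out both replicate 1 arrays was chosen after the data were seen.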

Additional observations from a re-analysis of the deposited data

Results flagged for a closer look

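Of 30 groups of NPRA+/+ values checked (27 named members, Mrpl41 having too few values, and the mean levels of all, Mrpl and Mrps members), 5 held an array far from the other 4 by Dixon's test. Chance alone would flag about 1 in 20 groups chosen without regard to their values, but some of these members were named for their large change or SD, and 3 of the 5 share an array, so the count cannot be read against that rate. NPRA+/+ replicate 1 was low for Mrpl58 (2.82, the others 3.20 to 3.35), Mrps18c (2.41, the others 2.95 to 3.05) and Mrps22 (1.61, the others 2.03 to 2.13), as log2 levels relative to the 75th percentile. NPRA+/+ replicate 2 was low for Mrps30 (1.51, the others 1.87 to 1.94) and NPRA+/+ replicate 5 for Mrps7 (0.87, the others 2.42 to 2.51). A second probe of Mrps7 gave 1.20 on NPRA+/+ replicate 5 and 1.00, 1.20, 1.09 and 1.16 on NPRA+/+ replicates 1 to 4.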

How the results depend on the processing

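The members' median change moved past the spread between arrays (SD 0.09) only with scaling to the median, and members called stayed at 0 in each direction except for 1 higher within scan day 1 (Mrpl19) and 1 lower with array weights (Mrpl54). Over 24 alternatives, 671 values of the 28 named members kept their direction and side of the threshold in 617 cases, changed sign in 52 and passed in 2. Over all probes (113 higher and 10 lower), limma called 0 and 0 with quantile normalization, scaling to the median, normexp, the deposited table, the repetition number as a replicate block, slide or scan day as a block, averaged NPRA+/+ arrays and trended robust variances. It called 3 and 0 when a probe had to be above background on all arrays, 183 higher without a filter, 177 higher when a gene's probes were averaged, 1 and 21 with a replicate block by source name number, 5494 and 485 within scan day 1, and 8808 and 749 with array weights. Leaving out 1 array gave 0 to 3901 higher and 0 to 187 lower, the highest without NPRA+/+ replicate 1, and leaving out both replicate 1 arrays 3954 and 180. With either replicate block 0 members were called and 1 had an unadjusted p under 0.05, Mrpl47 by repetition number (1.14, adjusted p = 0.199) and Mrps7 by source name number (0.72, adjusted p = 0.196). Of other mitochondrial translation genes, 2 passed higher within scan day 1 (Fastkd2, Primpol), 4 higher and 1 lower with array weights, 2 without both replicate 1 arrays, and 0 to 1 with 1 array left out (Nars2, without NPRA+/+ replicate 1).

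The members' median was -0.25 with scaling to the median. Relative to all probes (-0.17) it was -0.011 with quantile normalization, -0.017 in the deposited table and -0.38 with normexp. The mean level difference was -0.22 with scaling to the median. The array mean took 34.6%, 16.4% and 8.07% of the members' variation with scaling to the median, normexp and averaged probes, and 6.44% to 13.8% with 1 array left out. The first component took 61.5% with quantile normalization, 59.8% with scaling to the median, 42.0% with normexp, 43.1% with averaged probes, 45.3% for members above background on all arrays, and 44.5% to 60.0% with 1 array left out. The NRF1 share was 26.1% with the shorter motif.

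None of the sign changes was of a called value. Scaling to the median takes 1 number off each array, so it moves the change of every probe measured on all 8 arrays alike. The median of all probes went from 0.21 to -0.08 and that of the members from 0.04 to -0.25. The cause of the sign changes in other settings was not tested, other than for Mrpl41 with averaged probes, where its dim second probe stands alone on 2 arrays. With scaling to the median Mrpl12 was at -0.17, Mrpl14 at -0.015, Mrpl19 at -0.0079, Mrpl24 at -0.22, Mrpl58 at -0.20, Mrps10 at -0.22, Mrps25 at -0.071, Mrps27 at -0.097, Mrps30 at -0.063 and Mrps33 at -0.26. With quantile normalization Mrps33 was at -0.073. With normexp Mrpl24 was at -0.0046 and Mrps33 at -0.00047. In the deposited table Mrpl21 was at -0.023, Mrpl41 at 0.25 and Mrps33 at -0.076. With the repetition number as a replicate block Mrpl10 was at 0.0096 and Mrps12 at 0.046. With slide as a block Mrps12 was at 0.015. Within scan day 1, or with scan day as a block, Mrpl12 was at -0.024, Mrpl21 at -0.20, Mrpl58 at -0.085, Mrps14 at 0.10 and Mrps33 at -0.046. With array weights Mrpl58 was at -0.036, Mrps14 at 0.074 and Mrps33 at -0.032. With averaged probes Mrpl41 was at 0.90, Mrps14 at 0.16 and Mrps33 at -0.079. Without both replicate 1 arrays Mrpl44 was at 0.0086, Mrpl58 at -0.036, Mrps10 at -0.067, Mrps14 at 0.067 and Mrps33 at -0.037. With 1 array left out the ranges were -0.14 to 0.016 for Mrpl3, -0.13 to 0.052 for Mrpl44, -0.18 to 0.20 for Mrps10, -0.21 to 0.043 for Mrps14, -0.032 to 0.068 for Mrps33, -0.27 to 0.11 for Mrpl32, -0.077 to 0.028 for Mrps12 and -0.22 to 0.030 for Mrpl41.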
